A study of Mus musculus with 6 samples.

Results

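The ubiquitin-specific proteases (USPs) were described in mouse morulae that had received either control or *Yy1* siRNA as zygotes. The family was taken as every gene whose symbol is Usp followed by a number and at most 1 letter, without *Usp9x*, *Usp9y* and *Usp29*, which left 47 of the 55364 genes listed. All embryos came from in vitro fertilization of BDF1 oocytes with BDF1 sperm with no engineered allele described. By their labels control KD and *Yy1* KD differ by the siRNA, and both groups were injected as zygotes, cultured in KSOM and collected 64 h after insemination. Whether the groups also differ in injection day or culture is not given. No second siRNA or rescue is described, so loss of YY1 and other effects of the siRNA cannot be told apart. Each group had 3 libraries of total RNA from 10 pooled morulae each, whose sex is not known, and a knockdown by siRNA leaves part of the transcript. Levels are given as TPM, read pairs per base of exon, brought to a total of 1000000 in each library, so that they can be compared between genes. As each value is an average over whole morulae, fewer cells with a transcript and less transcript per cell cannot be told apart.

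USPs are cysteine proteases that cut ubiquitin off proteins or trim ubiquitin chains, and so oppose the E1, E2 and E3 enzymes that attach it. They form the largest of several families of deubiquitinases. Some sit in large complexes, such as USP22 in the chromatin complex SAGA and USP14 on the proteasome, some need an activator such as WDR48, and a few, such as the splicing factor USP39, lack protease activity. In early embryos, where stored maternal proteins are cleared and chromatin is rebuilt, removal of ubiquitin acts on histones, on protein turnover and on endosomal sorting. YY1 is a zinc finger transcription factor that binds a motif with the core CCAT, often close to start sites.

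The strongest difference in the family was that of *Usp31*, and its promoter is shown first because it held the YY1 consensus GCCATNTT, which reads AANATGGC on the other strand, at 2 places. The motif was searched on both strands in RefSeq promoter windows (GRCm38.p6) that reach from 250 bases before to 50 bases after a start site. Windows were given for 36 of the 47 members. In the lines that follow, the motif is in capitals, each line reads 5′ to 3′ on the strand of the gene, and positions are those of the first base of the motif relative to the RefSeq start. The sites of *Usp31* begin 170 and 75 bases before the start (chr7:121707594-121707623 and chr7:121707499-121707528, minus strand).
*Usp31*, distal site: tgcccatactaAACATGGCcagtcttgagc
*Usp31*, proximal site: ttcccacagtcAATATGGCggcctcgcagc
*Usp21*, 43 bases into the transcript: cggcaccaacaAAGATGGC
*Usp24*, 19 bases into the transcript: aggagcaggccAACATGGCggcgcgcaggg
*Usp47*, 63 bases before the start: gagcggcggccGCCATTTTtccattgattg

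Of the 36 members with a window, 5 (13.9%) held the consensus, against 6.05% of all 32851 windows. These were the 4 genes printed and *Usp11*, which was too low to be tested. Members were counted as genes, whereas the 6.05% is of windows and not limited to genes tested, so the shares are of unlike sets. At least 2 sites, as in *Usp31*, were present in 0.326% of all windows. The site of *Usp21* lies at chr1:171287912-171287930 (minus strand), that of *Usp24* at chr4:106316220-106316249 and that of *Usp47* at chr7:112023432-112023461 (both plus strand), and none of the sites covers a start codon annotated in GENCODE vM21. The RefSeq start of *Usp31* lies 189 bases before its start in GENCODE vM21. All 4 tested genes with the consensus had a log2 fold change below 0, beside 13 of the 27 tested members whose window lacked it. The median log2 fold change was -0.60 in the former and 0.01 in the latter. The 4 include *Usp31*, whose fall was known before the genes were chosen, so its sign and its part in the median were fixed in advance. Without *Usp31* the middle value of the others was that of *Usp24*, -0.39. *Usp21* (-0.82), *Usp24* (-0.39) and *Usp47* (-0.15) were not called. With 4 genes, of which *Usp31* alone was called, this is a description. A match gives letters, not binding, and binding of YY1 was not analysed here.

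The libraries were checked by depth, by the target of the siRNA and by marker genes. Recovered read pairs on genes ran from 11793513 to 24417782 per library. *Yy1* itself was at 96.0, 100.2 and 89.8 TPM under control siRNA and 8.73, 8.90 and 8.32 TPM under *Yy1* siRNA, and the groups did not overlap (log2 fold change -3.32, standard error 0.09, limma adjusted p = 6.71e-05). All 9 morula markers, among them *Pou5f1* and *Cdx2*, were expressed, with a summed level of 1979 to 2103 TPM in control KD and 1682 to 1837 TPM in *Yy1* KD libraries. Of these 9, 7 had a log2 fold change below 0, and the lowest, -0.86, was that of a marker not called. *Tfap2c* was the 1 called (6.11% of all genes were called), with a log2 fold change of -0.54 (limma adjusted p = 0.0174). The 6 oocyte markers summed to 46.5 to 61.9 TPM in control KD and 48.5 to 64.8 TPM in *Yy1* KD libraries, the 8 cumulus cell markers to at most 1.17 TPM, with *Has2*, *Ptx3*, *Tnfaip6*, *Fshr* and *Cyp19a1* at 0 throughout, and the 4 sperm markers to at most 2.26 TPM. The lower sum of morula markers moved with the knockdown, and its part in the differences of USP genes was not tested.

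In control KD morulae, 5 USP genes had a mean level above 100 TPM, 14 lay between 20 and 100 TPM, 15 between 5 and 20 TPM, 7 between 1 and 5 TPM and 6 below 1 TPM. *Usp1*, which with its activator WDR48 removes ubiquitin from PCNA and FANCD2, was the highest at 399.5 ± 30.6 TPM (SD, n = 3 libraries, as in all values with ±). It was followed by *Usp48* (249.7 ± 17.2 TPM), a nuclear enzyme, *Usp7* (199.6 ± 10.7 TPM), which acts on MDM2 and p53, and *Usp22* (141 ± 13.8 TPM). The ranges of the 3 control KD libraries did not overlap between any neighbours among these first 5 ranks, the fifth being *Usp19* (105 ± 0.607 TPM), an enzyme anchored in the membrane of the endoplasmic reticulum. From there on, *Usp19*, *Usp38* (96.5 ± 13.9 TPM), the endosomal enzyme *Usp8* (96.4 ± 9.72 TPM) and *Usp33* (86.5 ± 8.57 TPM) each overlapped the next in this order, while every control KD value of *Usp19* lay above those of *Usp33*. *Usp37* (74.2 ± 2.203 TPM), which acts in the cell cycle, and the proteasome-bound *Usp14* (64.4 ± 3.04 TPM) completed the first 10, and *Usp14* overlapped *Usp10* (58.8 ± 4.28 TPM). These 10 genes held 70.3% of the summed TPM of the family and *Usp1* alone 18.6%. Some of these levels are less certain, as part of the transcript sequence also occurs in other genes. Of all stretches of 100 bases this was so for 24.8% in *Usp14*, 19.1% in *Usp38*, 17.8% in *Usp33* and 8.91% in *Usp1*.

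The summed level of the family was 2207, 2126 and 2121 TPM in control KD and 2106, 2137 and 2130 TPM in *Yy1* KD libraries, and these values overlapped (two-sided exact permutation test, p = 0.6). Of the 47 members, 41 passed the filter, 1 TPM or more in any 3 of the 6 libraries, and were tested. Their median control KD level was 17.8 TPM, against 8.75 TPM over all 17353 genes tested, and 32 of the 41 lay above that median. The other 6 stayed near 0. *Usp18*, which removes the ubiquitin-like protein ISG15, did not exceed 0.0961 TPM in any library, *Usp51* did not exceed 0.0879 TPM, and *Usp11*, *Usp13* and *Usp35* had control KD means of 0.234, 0.169 and 0.297 TPM. *Usp26*, an X-linked gene known from the germline, was at 0.0935, 0.141 and 0.389 TPM under control siRNA and 1.19, 1.23 and 0.147 TPM under *Yy1* siRNA, so that 2 of the 3 *Yy1* KD libraries stood above the remaining 4. In the same 2 libraries the 4 sperm markers had their highest sums, 2.26 and 1.91 TPM. These markers summed to 0 TPM in the third *Yy1* KD library and to 0.216 to 0.542 TPM in control KD libraries. A link between *Usp26* and the sperm markers was not tested.

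**Figure D1:**
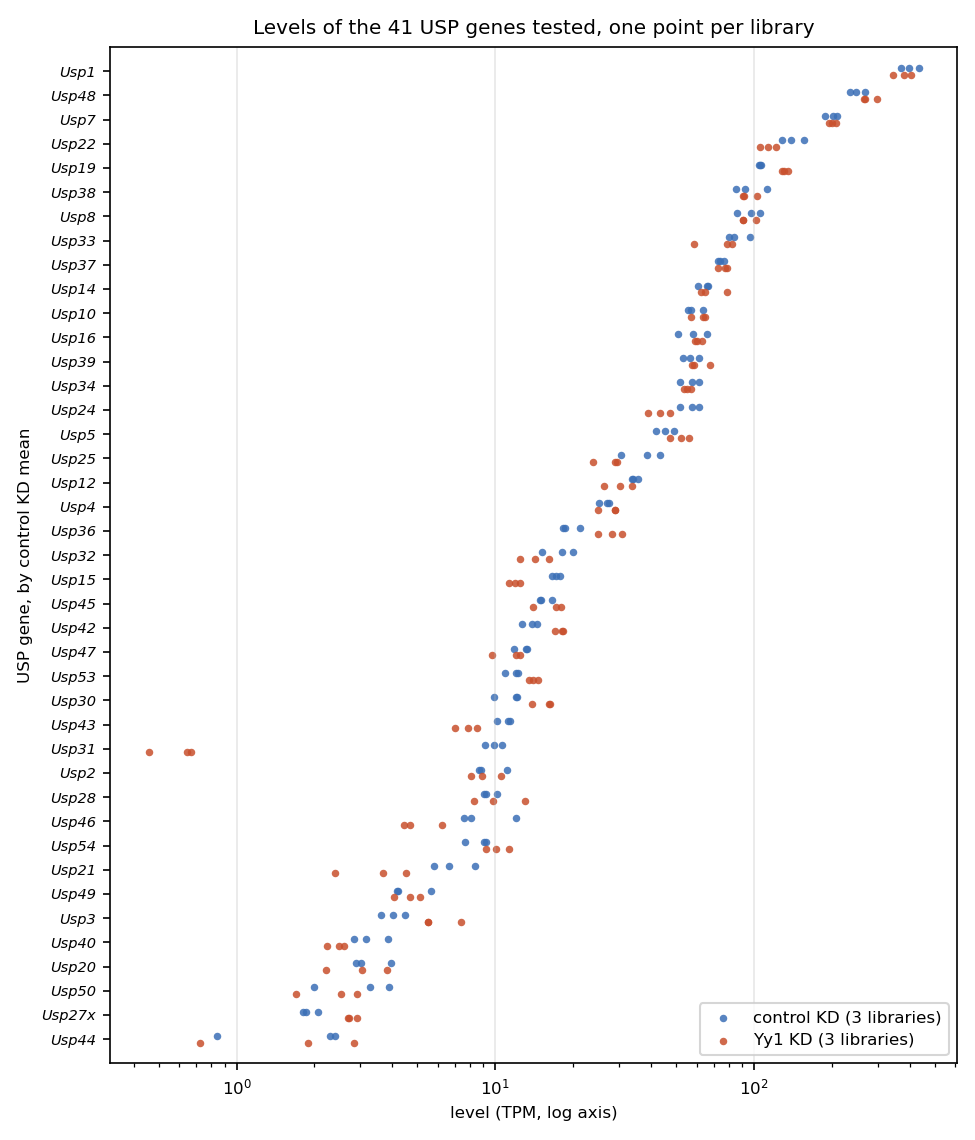
Level of each of the 41 USP genes tested in TPM on a log axis, with 1 point per library (blue, 3 control KD libraries; red, 3 *Yy1* KD libraries) and genes ordered by their control KD mean. Genes range from *Usp1* at 399.5 TPM to *Usp44* at 1.84 TPM, and *Usp31* is the gene whose red points stand far to the left of its blue ones.

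The comparison of *Yy1* KD with control KD morulae asks which USP transcripts differ in level after *Yy1* siRNA at this stage. Tests used limma on log2(TPM + 1), with Benjamini-Hochberg adjustment over all 17353 genes, and calls were made where the adjusted p was under 0.05. Of the 41 members tested, 2 were called lower, *Usp31* and *Usp15*, 1 was called higher, *Usp19*, and 38 were not called. This share of 7.32% is near the 6.11% of all genes that were called (4.2% lower and 1.92% higher), so the count of calls is no result about the family. Its median log2 fold change was -0.02, as was that of all genes tested, and 22 members lay below 0 and 19 above. Signs this near 0 depend on the scaling, and *Usp2*, *Usp8*, *Usp34*, *Usp38* and *Usp49* lay above 0 with quantile normalization. Of the 41 values, 37 were under 0.5 in size, beside 13308 of the 17353 over all genes. On read pairs recovered from TPM, limma-voom called 8 of 39 members, 5 lower and 3 higher, beside 12.1% of all genes (7.12% lower and 4.99% higher). The 3 control KD values did not overlap the 3 *Yy1* KD values in 18 members (43.9%), 10 of them lower and 8 higher, against 30.1% of all genes (17.2% lower and 12.9% higher). Among genes averaging 5 TPM or more, 3 of 35 members were called (8.57%, beside 8.47% of all such genes) and 16 (45.7%, beside 35.8%) did not overlap. An unadjusted p under 0.05 was found in 13 members and in 23.8% of all genes.

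*Usp31* (ENSMUSG00000063317.7, chromosome 7, 121642021 to 121707253, minus strand, GRCm38), a little-studied enzyme that has been linked to NF-κB signalling, was almost absent from *Yy1* KD morulae. Its level was 9.14, 10.6 and 9.89 TPM under control siRNA and 0.664, 0.459 and 0.646 TPM under *Yy1* siRNA. Every *Yy1* KD library was thus far below every control KD library, and the mean went from 9.87 ± 0.724 to 0.590 ± 0.114 TPM, which is 5.98% of control, beside 9.07% for *Yy1*. The log2 fold change was -2.77 (standard error 0.18, 95% interval -3.20 to -2.35, limma adjusted p = 0.00222), which was number 19 from the lowest of all 17353 genes. It was -4.03 on recovered read pairs with limma-voom, where no pseudocount of 1 TPM shrinks a low level. The values rest on 487, 1126 and 760 read pairs in the control KD and 53, 26 and 33 in the *Yy1* KD libraries. It was called in all 13 alternative settings, with a largest adjusted p of 0.0357 with a replicate block (limma), and in all 6 fits that left out 1 library.

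The antisense gene *1700069B07Rik*, which starts inside *Usp31* on the other strand (chromosome 7, 121707075 to 121708013, plus strand), spans both consensus sites and shares 179 bases of exon with it, was at 1.13, 1.70 and 0.571 TPM in control KD libraries and was listed at 0 in all 3 *Yy1* KD libraries. At these levels *1700069B07Rik* did not pass the filter and was not tested. Strand was ignored when pairs were assigned, so reads of both genes on the shared bases cannot be told apart. The shared bases are a small part of the 10304 bases of *Usp31* exons, and of all stretches of 100 bases in its transcripts 0.784% occur in another annotated transcript.

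**Figure D2:**
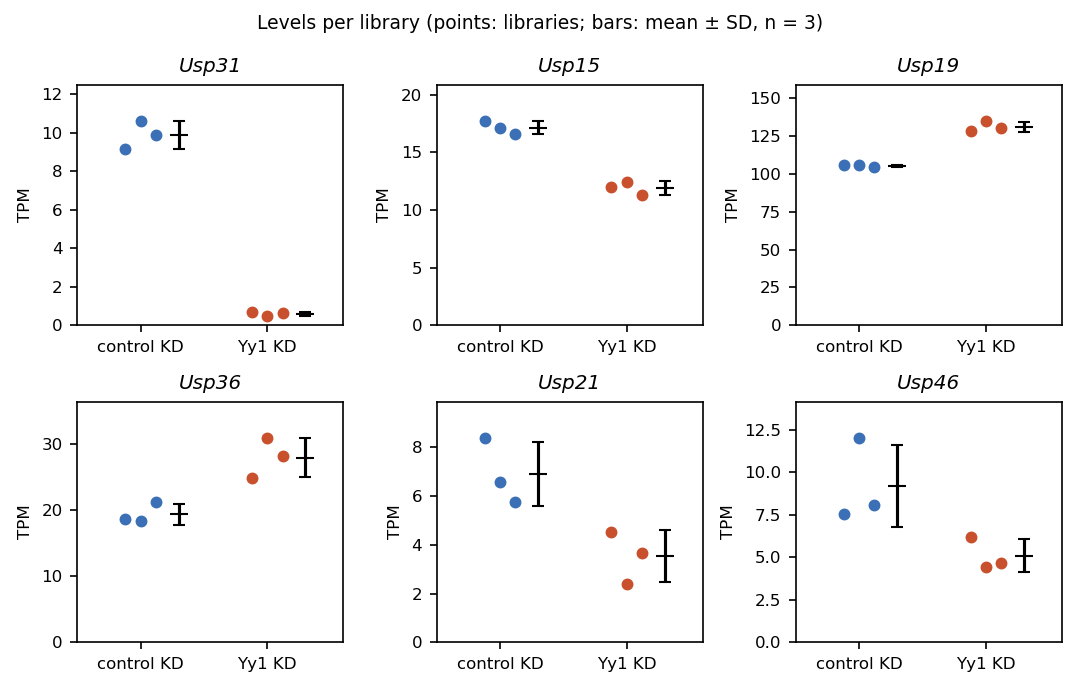
Level in TPM per library (points, 3 per group) with mean ± SD beside them for *Usp31*, *Usp15*, *Usp19*, *Usp36*, *Usp21* and *Usp46*, on linear axes from 0. In all 6 genes the groups do not overlap, and *Usp31* is the gene that comes close to 0, at 0.590 TPM.

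*Usp15* (ENSMUSG00000020124.10, chromosome 10, 123105006 to 123196995, minus strand), which is related to *Usp4* and *Usp11* and acts in TGF-β signalling among other pathways, was also lower, by less. Its level was 17.7, 17.1 and 16.6 TPM under control siRNA and 11.95, 12.5 and 11.3 TPM under *Yy1* siRNA. All *Yy1* KD libraries lay below all control KD libraries, and the mean was 69.4% of control (log2 fold change -0.49, standard error 0.11, limma adjusted p = 0.0460). The call was narrow, as it was kept in 3 of 13 alternatives, among them the read pair fit (adjusted p = 0.00726 with limma-voom), and in 0 of the 6 fits that left out 1 library, where limma adjusted p ran from 0.1001 to 0.132. Its relative *Usp4* was at 26.6 ± 1.22 TPM under control siRNA and 27.7 ± 2.39 TPM under *Yy1* siRNA, with a log2 fold change of 0.05 and a 95% interval of -0.19 to 0.29, and *Usp11* was not expressed enough to be tested. The noncoding gene *Gm4129*, which starts inside *Usp15* on the opposite strand and shares 169 bases with it, had a log2 fold change of -0.47 and was not called (limma adjusted p = 0.182).

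*Usp19* (ENSMUSG00000006676.16, chromosome 9, 108490602 to 108502337, plus strand) was the member called higher. Its level was 106, 106 and 105 TPM under control siRNA and 128, 135 and 130.0 TPM under *Yy1* siRNA. The control KD libraries lay within 2 TPM of each other and all *Yy1* KD libraries were above them, at 124% of the control mean (log2 fold change 0.31, standard error 0.06, limma adjusted p = 0.0398). This call too was lost in all 6 fits that left out 1 library, with limma adjusted p from 0.0815 to 0.129, and was kept in 5 of 13 alternatives. Over these alternatives its log2 fold change stayed between 0.29 and 0.35. For *Usp31*, *Usp15* and *Usp19* alike, a two-sided exact permutation test over the 6 libraries gave p = 0.1, the smallest that 3 libraries against 3 allow.

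**Figure D3:**
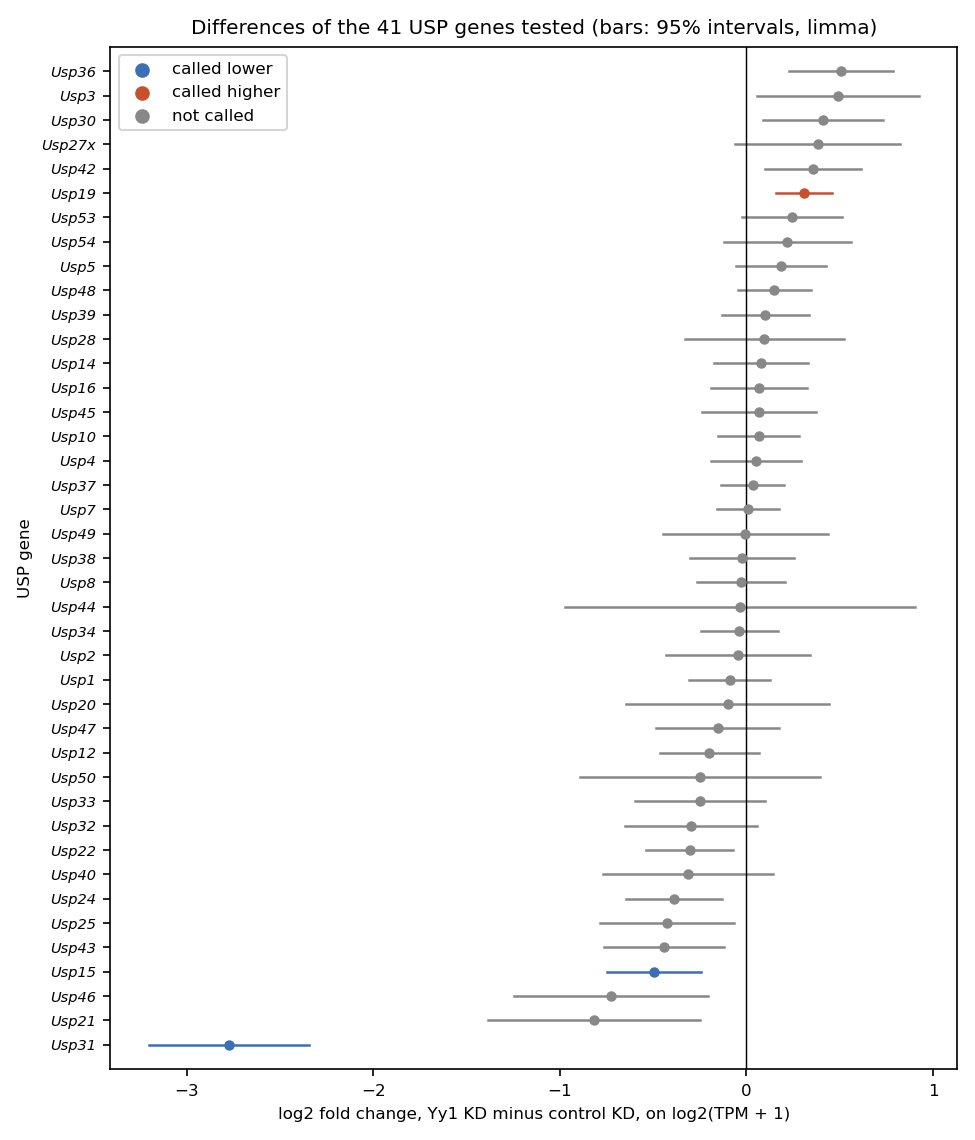
Log2 fold change of each of the 41 USP genes tested, *Yy1* KD minus control KD on log2(TPM + 1), with 95% intervals from limma (blue, called lower; red, called higher; grey, not called). *Usp31* stands alone at -2.77, and the others lie between -0.82 (*Usp21*) and 0.51 (*Usp36*).

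Members that edit chromatin had 0 calls among the 7 tested (6.11% of all genes were called), with 3 at an unadjusted p under 0.05 in limma (23.8% of all genes). Counts in a group this small say little about it, and the values lay on both sides of 0. *Usp22*, the catalytic subunit of the SAGA deubiquitination module, which takes ubiquitin off histones, was at 139, 155 and 128 TPM under control siRNA and 106, 122 and 113 TPM under *Yy1* siRNA. The groups did not overlap, but the gene was not called (log2 fold change -0.30, 95% interval -0.54 to -0.07, limma adjusted p = 0.118). *Usp21*, another histone deubiquitinase, was at 8.37, 6.60 and 5.78 TPM under control siRNA and 4.53, 2.41 and 3.67 TPM under *Yy1* siRNA, 51.2% of the control mean. It had the lowest value of any member not called, with no overlap between groups (log2 fold change -0.82, limma adjusted p = 0.0985), and was called on recovered read pairs (adjusted p = 0.0347 with limma-voom). *Usp3*, which also acts on histones, was at 4.03, 4.48 and 3.62 TPM under control siRNA and 5.49, 7.38 and 5.48 TPM under *Yy1* siRNA. Here the *Yy1* KD libraries were the higher ones, with no overlap and no call (log2 fold change 0.49, limma adjusted p = 0.164). *Usp27x*, an X-linked relative of *Usp22*, was at 1.90 ± 0.136 TPM under control siRNA and 2.78 ± 0.124 TPM under *Yy1* siRNA, with no overlap and no call (log2 fold change 0.38, limma adjusted p = 0.274). The share of XX embryos in each pool is not known, and its part in this value, or in that of any other X-linked gene reported here, was not tested. *Usp16* had a log2 fold change of 0.07, *Usp44* of -0.03 and *Usp49* of -0.01, with overlapping groups. *Usp49* shares 47.5% of its stretches of 100 bases with the overlapping gene *Gm20517*, which makes its own level uncertain.

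The 3 members that WDR48 activates were all below 0, as were 9167 of all 17353 genes tested, and none was called (6.11% of all genes were called). In limma, 1 had an unadjusted p under 0.05 (23.8% of all genes), and signs and counts in so small a group say little about it. *Usp1* had a log2 fold change of -0.09 (95% interval -0.31 to 0.13) and *Usp12* of -0.20 (95% interval -0.46 to 0.07). The groups of *Usp12* did not overlap (30.1% of all genes), by a narrow gap. Its lowest control KD value was 33.76 TPM and its highest *Yy1* KD value 33.68 TPM. *Usp46*, the close relative of *Usp12*, was at 7.54, 11.99 and 8.06 TPM under control siRNA and 6.21, 4.44 and 4.67 TPM under *Yy1* siRNA. The groups did not overlap and the *Yy1* KD mean was 55.5% of control, with a log2 fold change of -0.73 that missed the threshold (limma adjusted p = 0.105) and passed it on recovered read pairs (adjusted p = 0.0315 with limma-voom). The antisense genes *Usp46os1* and *Usp46os2*, which overlap its exons by 74 and 288 bases, had log2 fold changes of -0.76 and -0.81 (limma adjusted p = 0.162 and 0.0731). The activator *Wdr48* itself was at 21.8 ± 0.657 TPM under control siRNA and 20.1 ± 0.992 TPM under *Yy1* siRNA, with overlapping groups (log2 fold change -0.11, 95% interval -0.33 to 0.12).

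Among members of the nucleus, nucleolus and cell cycle, *Usp36*, a nucleolar enzyme that also stabilises MYC, came closest to a call. It was at 18.6, 18.3 and 21.2 TPM under control siRNA and 24.9, 30.8 and 28.1 TPM under *Yy1* siRNA. All *Yy1* KD libraries were above all control KD libraries, at 144% of the control mean (log2 fold change 0.51, standard error 0.12, limma adjusted p = 0.0559). It was called with quantile normalization, among genes averaging 5 TPM or more, and on recovered read pairs, with adjusted p of 0.0402 and 0.0372 by limma and 0.0103 by limma-voom. *Usp42*, which acts on p53 and histones, had a log2 fold change of 0.36 with no overlap between groups (limma adjusted p = 0.106). *Usp24*, whose promoter window holds the consensus, was at 57.6, 51.5 and 61.2 TPM under control siRNA and 47.5, 38.9 and 43.3 TPM under *Yy1* siRNA. It lay on the other side, with no overlap and a log2 fold change of -0.39 (limma adjusted p = 0.0894, and 0.0272 with limma-voom). *Usp48*, *Usp37*, *Usp28*, *Usp45* and *Usp47* had values from -0.15 (*Usp47*) to 0.15 (*Usp48*), with overlapping groups. None of these 8 genes was called in the main limma test (6.11% of all genes were called). An unadjusted p under 0.05 was found in 3 (23.8% of all genes), and counts in so small a group say little about it.

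The members tied to protein turnover had values near 0. *Usp7*, *Usp10* and *Usp2*, which act on p53 or MDM2, had log2 fold changes of 0.01, 0.07 and -0.05, and their 95% intervals stayed within 0.5 of 0. That of *Usp7*, the most abundant of them, was -0.16 to 0.17. The proteasome-bound *Usp14* was at 64.4 ± 3.04 TPM under control siRNA and 68.4 ± 8.63 TPM under *Yy1* siRNA (log2 fold change 0.08, 95% interval -0.17 to 0.33), though it shares 24.8% of its stretches of 100 bases with its neighbour *Thoc1*. *Usp5*, which takes apart free ubiquitin chains, had a log2 fold change of 0.19 (95% interval -0.06 to 0.43), and its relative *Usp13* was too low to be tested. Of the 5 endosomal and membrane enzymes, *Usp19* was called higher, as given above, and *Usp8* (-0.03), *Usp20* (-0.10), *Usp32* (-0.29) and *Usp33* (-0.25) had values below 0 on the log2 scale, that of *Usp8* above 0 with quantile normalization, with overlapping groups. *Usp30*, the enzyme of the outer mitochondrial membrane that opposes Parkin, was at 12.01, 12.1 and 9.86 TPM under control siRNA and 16.1, 13.8 and 16.3 TPM under *Yy1* siRNA. Its *Yy1* KD libraries were all higher, without a call (log2 fold change 0.41, limma adjusted p = 0.126), and 4.88% of its stretches of 100 bases lie in other genes, *Alkbh2* and *Svop*.

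Of the members long classed as lacking protease activity, which for *Usp53* and *Usp54* has since been revised, the splicing factor *Usp39* was at 57.0 ± 4.25 TPM under control siRNA and 61.3 ± 5.43 TPM under *Yy1* siRNA (log2 fold change 0.10, 95% interval -0.13 to 0.34). *Usp53* and *Usp54* had log2 fold changes of 0.25 and 0.22 with no overlap between groups (30.1% of all genes), and *Usp50* of -0.25 with overlap. In *Usp54* the gap was narrow, from a highest control KD value of 9.222 TPM to a lowest *Yy1* KD value of 9.229 TPM. None of the 4 was called, and 0 had an unadjusted p under 0.05 in limma, nor was any called by limma-voom. Over all genes these shares were 6.11%, 23.8% and 12.1%. The 6 members without a group of their own, *Usp31* among them, all lay below 0 in the main test, *Usp34* and *Usp38* above it with quantile normalization. Of all 17353 genes tested, 9167 lay below 0 in the main test. *Usp43* was at 10.2, 11.4 and 11.2 TPM under control siRNA and 8.52, 6.97 and 7.87 TPM under *Yy1* siRNA and *Usp25*, the relative of *Usp28*, at 43.2, 30.7 and 38.5 TPM under control siRNA and 29.6, 23.9 and 29.0 TPM under *Yy1* siRNA. Neither overlapped between groups, and neither was called (log2 fold changes -0.44 and -0.43, limma adjusted p = 0.109 and 0.149). *Usp40* had a log2 fold change of -0.31, *Usp34* of -0.04 and *Usp38* of -0.02, and the last 2 overlapped between groups. Of stretches of 100 bases, 10.6% in *Usp43*, 10.5% in *Usp34* and 19.1% in *Usp38* occur in other genes. For scale, 38 of the 41 members tested had a 95% interval within 1 of 0 on the log2 scale, and 19 had one within 0.5. Over all 17353 genes tested, whose median level was lower, these counts were 11367 and 3884.

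**Figure D4:**
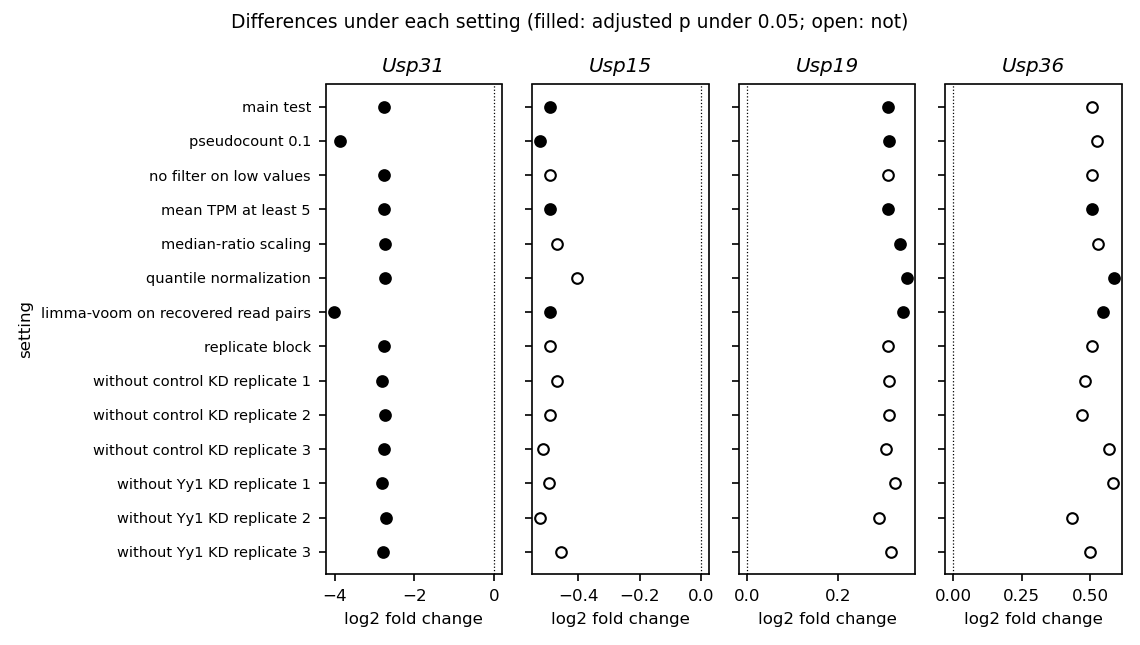
Log2 fold change of *Usp31*, *Usp15*, *Usp19* and *Usp36* under the main test and 13 alternatives (filled circles, adjusted p under 0.05; open circles, not). *Usp31* is filled in every row, and *Usp15* and *Usp19* lose the call, with little change in value, whenever 1 library is left out.

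Among the other deubiquitinases the lowest values were those of *Brcc3* and *Yod1*, and *Brcc3* and *Atxn3* were called. Of 37 genes of the UCH, OTU, Josephin, JAMM, MINDY and ZUP1 families, 32 were tested, 2 were called lower (6.25%, beside 6.11% of all genes) and 0 higher, and the median log2 fold change was 0.05. *Brcc3*, a JAMM protease that cuts chains in the BRISC complex, was at 7.01, 6.90 and 6.97 TPM under control siRNA and 1.57, 2.61 and 1.10 TPM under *Yy1* siRNA (log2 fold change -1.56, standard error 0.24, limma adjusted p = 0.0196). *Atxn3*, a Josephin protease, was at 63.8, 59.6 and 60.7 TPM under control siRNA and 31.8, 38.7 and 39.6 TPM under *Yy1* siRNA (log2 fold change -0.73, standard error 0.10, limma adjusted p = 0.0167). Each had clearly separate groups and was called in 2 of the 6 fits that left out 1 library, while *Usp31* was called in all of them. Of *Cyld*, *Uspl1* and *Pan2*, which have the USP fold without a Usp number, 0 of 3 were called by limma and by limma-voom. An unadjusted p under 0.05 was found in 0 of them. Over all genes these shares were 6.11%, 12.1% and 23.8%.

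**Figure D5:**
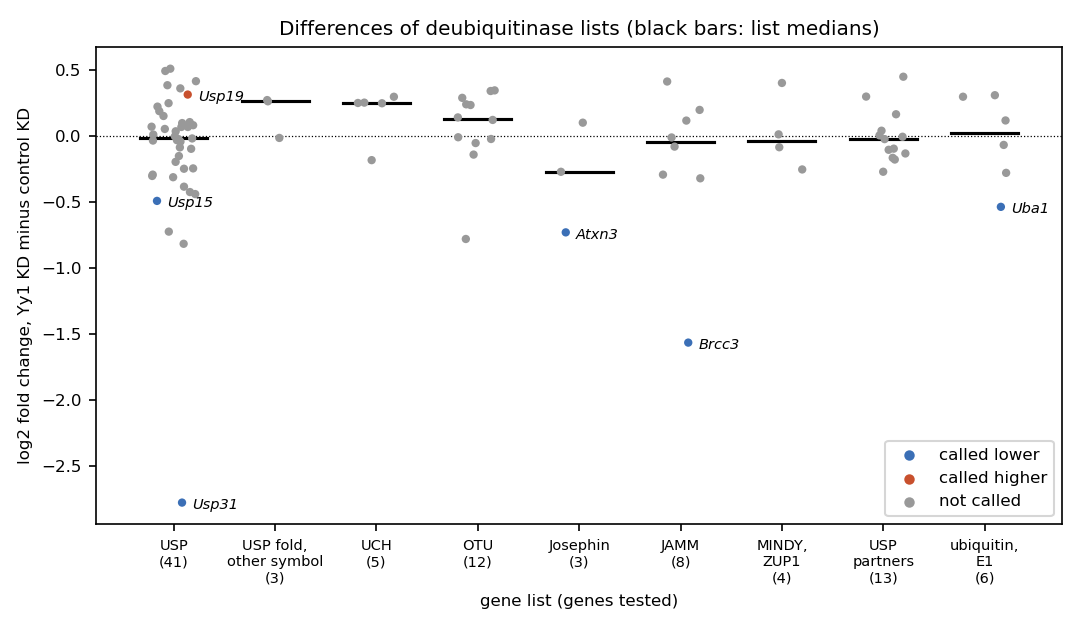
Log2 fold change (*Yy1* KD minus control KD) of each gene tested in the USP family, the other deubiquitinase families, USP partners and ubiquitin genes, with called genes coloured and list medians as black bars. *Usp31* at -2.77 and *Brcc3* at -1.56 lie furthest from 0, and the median of the USP family is -0.02.

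Partners of USP enzymes had small differences. Of 15 genes listed, 13 were tested and 0 were called by limma, or by limma-voom, which did not include *Hgs*, while 3 had an unadjusted p under 0.05 in limma. Beside 6.11% and 23.8% of all genes, these counts are no result about the partners. All 13 values were under 0.5 in size, beside 13308 of the 17353 over all genes, and those named here were chosen after their values were seen. For the SAGA module that holds USP22, *Atxn7l3* had a log2 fold change of -0.18, *Atxn7* of 0.04 and *Eny2* of -0.03. *G3bp1*, which binds USP10, was at 0.00 and *Gmps*, which binds USP7, at 0.16. *Hgs*, which acts with the USP8 partner STAM on endosomes, was at 139, 151 and 148 TPM under control siRNA and 176, 178 and 183 TPM under *Yy1* siRNA, with separate groups and a limma adjusted p of 0.0513 (log2 fold change 0.30). Of the 4 ubiquitin genes and 2 E1 enzymes, *Uba1*, the main ubiquitin-activating enzyme, was called, beside 6.11% of all genes. It was at 370.2, 335 and 393 TPM under control siRNA and 240.2, 267 and 247 TPM under *Yy1* siRNA, 68.7% of the control mean with no overlap (log2 fold change -0.54, standard error 0.08, limma adjusted p = 0.0213). The call was kept in 1 of the 6 fits without 1 library. *Ubb*, the ubiquitin gene with the highest level, was at 1100.0 ± 26.2 TPM under control siRNA and 1361 ± 63.0 TPM under *Yy1* siRNA and was not called (chosen after its values were seen; log2 fold change 0.31, limma adjusted p = 0.0528).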

How the data were processed

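RNA-seq libraries were made from pools of 10 morulae with the SMART-Seq Stranded kit, 3 per group, and grouped by their labels. The authors trimmed reads with Trim Galore 0.6.7, aligned them to mm10 with HISAT2 2.2.1, removed ribosomal RNA reads with bedtools, assigned read pairs to GENCODE vM25 genes with featureCounts 2.0.1 (pairs on several genes divided, strand ignored) and deposited TPM. Neither the cultures nor the injection days of the pools are given, so p-values measure the spread between these pools.

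As TPM is not a count, limma 3.58.1 (R 4.3.3) with a variance trend was fitted to log2(TPM + 1) of the 17353 genes at 1 TPM or more in any 3 libraries, and tested on simulated data. Read pairs were recovered as TPM times exon length (GENCODE vM21, GRCm38; 45 of 47 members matched in the same version, *Usp25* and *Usp27x* by gene identifier alone) and fitted with limma-voom as an alternative, scaled by the trimmed mean of M values. Of values under 20 pairs, 80.7% to 81.5% per library were within 0.001 of a whole number, and divided pairs give fractions. The members, gene lists and tests were chosen with earlier results of these data known. Named genes are all called members, the 10 with the highest control level, the 6 uncalled with the largest change at a mean TPM of at least 5, called genes of other lists, any partner of a called member, and any member within its role. Overlapping genes and other partners were named after their values were seen. Figures were drawn with matplotlib 3.10.9 in Python 3.11.15.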

Additional observations from a re-analysis of the deposited data

How the results depend on the processing

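Each test was repeated with a pseudocount of 0.1, with median-ratio or quantile scaling, without the filter or on genes averaging 5 TPM or more, by limma-voom on recovered read pairs, with a replicate block, and without each library in turn. All genes called lower and higher numbered 728 and 333. They were 270 and 77 without a filter, 1206 and 845 with limma-voom, 218 and 69 with a replicate block, and 53 to 326 and 22 to 92 without 1 library (fewest without control KD replicate 3, and under both main counts by over 1.5 times without any of the 6). USP members called lower numbered 2. They were 1 without a filter, with median-ratio scaling, with quantile normalization and with the block, 5 with limma-voom, and 1 in every fit without 1 library. Members called higher numbered 1. They were 0 without a filter and with the block, 2 at 5 TPM or more and with quantile normalization, 3 with limma-voom, and 0 without any 1 library. The median of the members, -0.02, was 0.034 with quantile normalization, 0.038 with limma-voom and -0.029 to 0.027 without 1 library. Other deubiquitinases called lower numbered 2. They were 1 without a filter and at 5 TPM or more, 0 with the block and 0 to 2 without 1 library, and 1 was called higher with limma-voom. USP partners called higher, 0, were 1 at 5 TPM or more and with quantile normalization. Of the ubiquitin and E1 genes, the 1 called lower became 0 without a filter and with the block and 0 to 1 without 1 library, and the 0 called higher became 1 with a pseudocount of 0.1, at 5 TPM or more and with limma-voom. The causes were not tested.

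Whether libraries of equal replicate number were paired is not stated. Deviations from the group means correlated at -0.00388, 0.0319 and 0.0747 across genes for the 3 pairs of equal number. Pairs of unequal number ran from -0.0713 to 0.0411. As deviations sum to 0 within a group, these values do not settle whether the pools were paired. For the 22 genes followed one by one, no call changed direction in 284 refits: 243 kept their side of the threshold, 36 lost a call and 5 gained one. Precision is lowest for low genes, as in *Usp44*, whose 95% interval was -0.97 to 0.90.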

Other observations

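*Yod1*, an OTU deubiquitinase that was not called and was chosen after its values were seen, was at 1.01, 1.09 and 1.28 TPM under control siRNA and 0.148, 0.178 and 0.395 TPM under *Yy1* siRNA. Its log2 fold change was -0.78 on log2(TPM + 1) (limma adjusted p = 0.115) and -2.33 on recovered read pairs (limma-voom adjusted p = 0.0102). With a pseudocount of 0.1 it was -1.91, again without a call (limma adjusted p = 0.186).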
